A study of Mus musculus with 8 samples.

Results

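The 46 genes described here are cell cycle and DNA replication genes, taken by symbol from the 31053 genes of the deposited matrices. They were followed in immune cells that the submitters isolated with magnetic beads against CD45, the surface phosphatase of blood-derived cells and, at a lower level, of microglia. The control group was normal mouse brain and the glioma group was the tumour of glioma-bearing mice. Strain, age, sex, the glioma line and the time after implantation are not given in the sources used here. The labels list 4 control and 4 glioma samples. The counts came as 1 matrix per group, with no key from cell barcodes to animals, so each group was read as 1 pooled library. No difference between the groups could be tested against the spread of animals, and every interval below is an exact 95% interval that covers counting error only.

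Cells double their DNA and then divide, and each stage draws on its own proteins. The replication members act at the origin and the fork: Mcm2 to Mcm7 form the helicase ring that opens DNA, Cdc6 loads it, Gins2 is part of the complex that activates it, and Pcna is the sliding clamp of the polymerases with its partner Pclaf. Rrm1, Rrm2, Tyms, Tk1 and Dut supply or guard the DNA building blocks, and Ccne1 and Ccne2 are the E cyclins of the start of replication. The mitosis members drive and carry out division: Cdk1 with Ccna2, Ccnb1 and Ccnb2 is the engine, Plk1, Aurka and Aurkb are kinases of the spindle, Cenpa, Cenpe, Cenpf, Spc24 and Spc25 belong to the centromere and kinetochore, and Bub1 and Bub1b to the spindle checkpoint. Kif11, Kif20a, Kif23, Prc1, Tpx2 and Nusap1 build or move along the spindle, Birc5 and Cdca8 travel with Aurkb, Cdc20 and Ube2c work in the degradation of cyclins, Cdca3 is a factor for entry into mitosis, Top2a untangles DNA and Mki67 coats mitotic chromosomes. Hmgb2, a chromatin protein, and Stmn1, a microtubule destabiliser, are higher in dividing cells but are also used outside the cycle, and they were kept in neither list. In adult brain resident microglia renew slowly, whereas T cells, dendritic cells and monocyte-derived macrophages in a tumour can divide on site, and mature neutrophils do not divide.

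The promoters of such genes are known for a few short elements: CCAAT boxes, E2F sites, and the cell cycle genes homology region (CHR) of genes that peak late. RefSeq promoter windows (build GRCm38.p6) matched 37 of the 46 members, and the 250 bases before the start were searched on both strands for CCAAT, for the CHR cores TTTGAA and TTCGAA, and for the E2F cores TTCCCGC and TTGGCGC. A reversed CCAAT box followed by CGC also reads as an E2F core, so those matches can overlap. CCAAT was present in 30 of 37 member windows (81.1%), against 33.8% of all 32851 windows in the table. Among mitosis members it was present in 20 of 22, and among replication members in 9 of 14. A CHR core was present in 8 of 22 mitosis windows, 2 of 14 replication windows and 17.1% of all windows. An E2F core was present in 5 of 14 replication windows, 3 of 22 mitosis windows and 5.62% of all windows. The 8 windows below show these arrangements in members whose counts are described later. Each is the 120 bases directly before the start, written 5′ to 3′ on the gene's strand, with the matches in capitals (ATTGG and TTCAAA are CCAAT and TTTGAA on the other strand).
Ccnb2 (chr9:70421555-70421674, minus strand): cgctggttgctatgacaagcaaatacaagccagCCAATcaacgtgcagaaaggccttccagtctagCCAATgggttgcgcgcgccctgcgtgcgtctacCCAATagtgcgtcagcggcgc
Cdk1 (chr10:69352913-69353032, minus strand): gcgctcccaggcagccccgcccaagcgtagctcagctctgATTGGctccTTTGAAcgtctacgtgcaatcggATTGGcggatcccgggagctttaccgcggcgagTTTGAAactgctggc
Cdc20 (chr4:118437344-118437463, minus strand): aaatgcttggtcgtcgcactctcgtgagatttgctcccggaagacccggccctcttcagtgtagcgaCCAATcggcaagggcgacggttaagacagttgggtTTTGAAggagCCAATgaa
Kif11 (chr19:37376262-37376381, plus strand): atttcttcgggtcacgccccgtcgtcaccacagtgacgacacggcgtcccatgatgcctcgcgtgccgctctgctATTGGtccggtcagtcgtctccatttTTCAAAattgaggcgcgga
Mki67 (chr7:135716380-135716499, minus strand): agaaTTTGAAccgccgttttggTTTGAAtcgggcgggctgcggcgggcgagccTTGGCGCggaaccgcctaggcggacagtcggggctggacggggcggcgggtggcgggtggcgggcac
Mcm3 (chr1:20820313-20820432, minus strand): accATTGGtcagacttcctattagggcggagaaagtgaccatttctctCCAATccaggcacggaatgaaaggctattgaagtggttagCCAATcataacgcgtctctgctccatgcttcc
Mcm6 (chr1:128359706-128359825, minus strand): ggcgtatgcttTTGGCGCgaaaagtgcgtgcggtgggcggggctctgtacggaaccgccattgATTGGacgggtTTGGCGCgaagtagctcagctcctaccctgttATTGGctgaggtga
Rrm1 (chr7:102441575-102441694, plus strand): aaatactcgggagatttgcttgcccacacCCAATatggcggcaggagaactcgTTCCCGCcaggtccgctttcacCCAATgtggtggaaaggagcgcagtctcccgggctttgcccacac
Ccnb2 has 3 CCAAT boxes at nearly even spacing, Cdk1 pairs 2 CHR cores with 2 reversed CCAAT boxes, and Cdc20 and Kif11 hold 1 CHR core each. Mki67 has 2 CHR cores and 1 E2F core, Mcm3 has 3 CCAAT boxes, Mcm6 has 2 E2F cores and 2 reversed CCAAT boxes, and Rrm1 has 1 E2F core between 2 CCAAT boxes. These are matches of letters, with no binding data.

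Barcodes with at least 1000 unique molecular identifiers (UMIs, 1 per captured transcript) and at most 10% mitochondrial UMIs were kept, 13680 in the control library (median 6842 UMIs) and 11049 in the glioma library (median 11332). The libraries shared 41 of these barcodes. Cells were placed in classes by raw UMIs of marker lists, and each class carried its own list: the microglia list summed to 14099 CPM (UMIs per 1000000 UMIs of the same cells) in control microglia, the macrophage list to 4662 CPM in glioma macrophages, and the T cell list to 3968 CPM in glioma T cells. The control library held 12242 microglia and 62 T cells. The glioma library held 7559 macrophages, 1343 T cells, 616 dendritic cells, 315 neutrophils and 53 microglia. RNA in barcodes too small to be cells held 251 CPM of the 6 gate genes named next in the glioma library and 30.8 CPM in the control library. Such free RNA made up at most 7.45% of UMIs in glioma macrophages and microglia and at most 35.8% in control T, B, NK and endothelial cells, as read from marker lists foreign to each.

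A cell was counted as cycling when it held at least 2 UMIs in sum over 6 members, after its counts had been thinned at random to 2000 UMIs so that deep and shallow cells had the same chance. The gate genes were Mki67 (ENSMUSG00000031004, chr7:135689784-135716361, minus strand), Top2a (ENSMUSG00000020914, chr11:98992943-99024189, minus strand), Birc5 (ENSMUSG00000017716, chr11:117849251-117855743, plus strand), Pclaf (ENSMUSG00000040204, chr9:65890237-65903266, plus strand), Rrm2 (ENSMUSG00000020649, chr12:24708241-24714146, plus strand) and Tk1 (ENSMUSG00000025574, chr11:117815526-117826092, minus strand), all protein-coding, with coordinates on GRCm38 from GENCODE vM21. The remaining 40 members were not used to choose cells. The cut is a point on a continuous count and not a border between cell types: among glioma macrophages 440 cells lay just below it with 1 gate UMI and 154 just above it with 2, while 245 had 3 or more.

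In the glioma library 684 of 10524 cells were cycling (6.5%, 6.04 to 6.99%), and in the control library 33 of 12265 (0.269%, 0.185 to 0.378%). Macrophages supplied 58.3% of the cycling glioma cells, T cells 22.7% and dendritic cells 8.04%. Within classes the order was different. Glioma T cells had 155 of 1317 (11.8%, 10.1 to 13.6%) cycling, dendritic cells 55 of 612 (8.99%, 6.84 to 11.5%) and macrophages 399 of 7381 (5.41%, 4.9 to 5.95%). The T cell and dendritic intervals overlapped, and both lay above that of macrophages, the most numerous class. Natural killer (NK) cells had 8 of 105 (7.62%, 3.35 to 14.5%), with an interval that overlapped all 3. Glioma neutrophils, a class that should not divide, had 0 of 217, which allows a share of up to 1.38%, at a median of 2550 UMIs among the cells deep enough to thin. Glioma B cells had 0 of 33, which allows a share of up to 9.09%.

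Control microglia were almost all outside the cycle, with 22 of 11110 (0.198%, 0.124 to 0.30%) cycling. The 53 glioma microglia had 3 of 53 (5.66%, 1.18 to 15.7%), an interval that did not overlap that of the control but rests on 3 cells. The intervals did overlap under 3 other settings: with at least 3 gate UMIs, 1.89% (0.0478 to 10.1%) against 0.162% (0.096 to 0.256%), thinned to 1000 UMIs, 1.89% (0.0478 to 10.1%) against 0.106% (0.0566 to 0.182%), and with Pclaf, Rrm2 and Tk1 alone, 3.77% (0.46 to 13%) against 0.405% (0.296 to 0.542%). Control T cells, few in number, had 7 of 60 (11.7%, 4.82 to 22.6%), which overlapped the share of glioma T cells. Control endothelial cells had 0 of 96, which allows a share of up to 3.12%. Control cells gated on globin transcripts alone had 0 of 153, which allows a share of up to 1.96%. Without thinning, deeper cells pass the cut more often, and the shares were 22.6% in glioma T cells, 24.8% in dendritic cells, 15.5% in macrophages, 24.5% in glioma microglia, 0.952% in neutrophils and 0.441% in control microglia, so that dendritic cells then stood above T cells. Cycling cells were also deeper than the rest of their class: the median was 25835 against 12432 UMIs in macrophages and 17720 against 7084 in T cells. No doublet caller was run, and barcodes with a second strong marker list of another lineage had been set aside. The microglia, macrophage, border-associated macrophage and dendritic lists counted as the same lineage, and so did the T cell and NK lists. Barcodes that mixed lists within a lineage were therefore kept. In cycling macrophages the median UMI count of the T cell list, the dendritic list and the microglia list was 0 for each, and the T cell list summed to 15.4 CPM against 19.2 CPM in the other macrophages. Macrophages with a strong T cell list had already been removed, so the T cell values cannot show whether such doublets occurred.

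**Figure D1:**
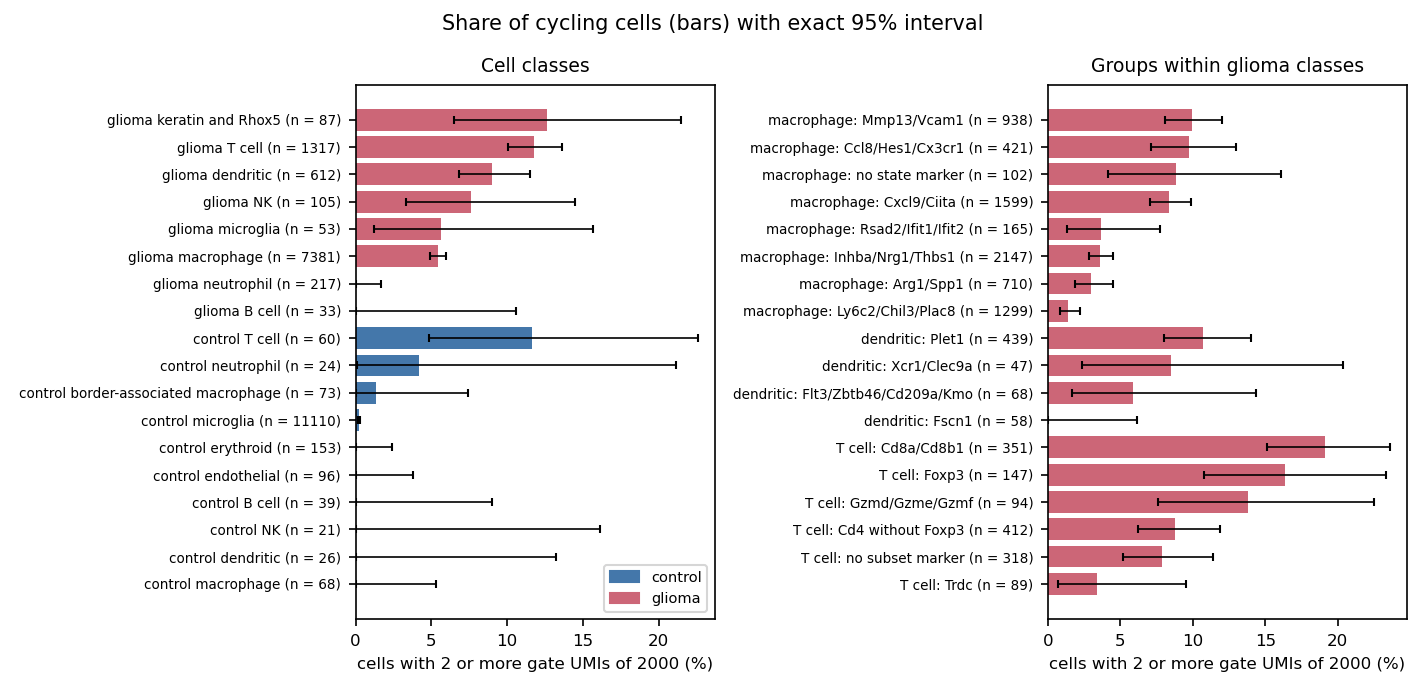
Share of cycling cells (x axis, %) in each class of both libraries with at least 20 cells of 2000 or more UMIs (left) and in groups within glioma classes (right), with bars for the share, whiskers for the exact 95% interval and n the cells counted. Glioma T cells and dendritic cells lie above glioma macrophages, and control microglia sit near 0 at 0.198%.

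Glioma macrophages were split by which of 7 marker sets stood highest in the cell after scaling. Each set's part of the UMIs was divided by the upper quartile of that set among macrophages that held it. The lowest share was in the Ly6c2/Chil3/Plac8 group, whose markers are those of newly arrived monocytes, with 18 of 1299 (1.39%, 0.823 to 2.18%) cycling. The Arg1/Spp1 group had 21 of 710 (2.96%, 1.84 to 4.49%) and the Inhba/Nrg1/Thbs1 group 77 of 2147 (3.59%, 2.84 to 4.46%). Higher shares were seen in the Cxcl9/Ciita group, marked by an interferon gamma target chemokine and the master regulator of MHC class II, with 134 of 1599 (8.38%, 7.07 to 9.85%), in the Mmp13/Vcam1 group with 93 of 938 (9.91%, 8.08 to 12%), and in the Ccl8/Hes1/Cx3cr1 group with 41 of 421 (9.74%, 7.08 to 13%). The intervals of these 3 groups overlapped one another and lay above those of the Ly6c2/Chil3/Plac8, Arg1/Spp1 and Inhba/Nrg1/Thbs1 groups. The Rsad2/Ifit group, of interferon-induced genes, had 6 of 165 (3.64%, 1.35 to 7.75%), and 9 of 102 (8.82%, 4.11 to 16.1%) were cycling among macrophages with no state marker. The groups differed in depth, from a median of 8135 UMIs in the Ly6c2/Chil3/Plac8 group to 17614 in the Mmp13/Vcam1 group. Thinning set the UMIs per cell equal, and the part of depth in the choice of group was not tested.

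Among glioma T cells, cells with at least 2 UMIs of Cd8a and Cd8b1 and none of Cd4 or Foxp3 had 67 of 351 (19.1%, 15.1 to 23.6%) cycling. Foxp3 cells, the regulatory subset, had 24 of 147 (16.3%, 10.7 to 23.3%). Cells with Cd4 and no Foxp3 had 36 of 412 (8.74%, 6.19 to 11.9%), an interval below that of the Cd8 cells and overlapping that of the Foxp3 cells. Gamma delta T cells, read from Trdc, had 3 of 89 (3.37%, 0.701 to 9.54%). Cells with at least 3 UMIs of the granzymes Gzmd, Gzme and Gzmf, which cut across these subsets, had 13 of 94 (13.8%, 7.57 to 22.5%). T cells left outside the Cd8, Cd4, Foxp3 and Trdc subsets had 25 of 318 (7.86%, 5.15 to 11.4%). Such cells can hold subset transcripts that were too few or too mixed to place them. Unthinned shares kept Foxp3 cells (36%) and Cd8 cells (32.3%) above Cd4 cells without Foxp3 (20%) and Trdc cells (6.67%). In dendritic cells the Plet1 group had 47 of 439 (10.7%, 7.97 to 14%), and the Xcr1/Clec9a group, the cross-presenting type 1 cells, had 4 of 47 (8.51%, 2.37 to 20.4%). The Fscn1 group, in which the actin bundler of mature migrating dendritic cells is the marker, had 0 of 58, which allows a share of up to 5.17%.

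In glioma macrophages the members that the gate did not use were all higher in the 399 cycling cells than in the other 6982. All 40 had at least 20 UMIs over both sums. Of them, 40 were at least 2-fold higher, while 8.42% of all 12653 genes with that minimum were. The median log2 ratio of CPM was 3.51, against 0.12 over all genes tested. The mitosis members had a median of 3.84 (1.67 to 4.71) and the replication members 2.56 (1.07 to 4.17). The 6 gate genes chose the cells, so their levels are a description: Mki67 stood at 318 against 21.4 CPM, Top2a at 343 against 15.5, Birc5 at 232 against 14.3, Pclaf at 340.4 against 15.1, Rrm2 at 75.5 against 3.26 and Tk1 at 87 against 4.82.

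The largest ratios in macrophages belonged to genes of mitosis. Ccna2, the A cyclin that carries Cdk1 into mitosis, was at 75.5 against 2.87 CPM (log2 ratio 4.71, 4.51 to 4.92). Plk1 was at 33.8 against 1.28 CPM (log2 ratio 4.71, 4.41 to 5.03). The spindle motor Kif11 was at 57.9 against 2.23 CPM (log2 ratio 4.69, 4.47 to 4.93) and Nusap1, which bundles spindle microtubules, at 92 against 3.58 CPM (log2 ratio 4.68, 4.5 to 4.87). These 4 genes were nearly silent outside the cycling cells. The B cyclins stood lower among the mitosis members, with Ccnb1 at 47 against 3.68 CPM (log2 ratio 3.68, 3.47 to 3.88) and Ccnb2 at 71 against 8.4 CPM (log2 ratio 3.08, 2.93 to 3.23). Aurkb reached 68.9 against 4.38 CPM (log2 ratio 3.98, 3.8 to 4.16) and Aurka 38 against 3.99 CPM (log2 ratio 3.25, 3.04 to 3.46).

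The smallest ratios belonged to genes that macrophages outside the cycle also held. Mcm4 was at 45.1 against 21.5 CPM (log2 ratio 1.07, 0.92 to 1.22), the only member of the helicase ring with a ratio near 1 on the log2 scale. The clamp Pcna was at 171 against 60.9 CPM (log2 ratio 1.49, 1.41 to 1.57), Cenpa, the histone H3 variant of centromeres, at 129 against 40.5 CPM (log2 ratio 1.67, 1.58 to 1.76), and Gins2 at 37.5 against 9.32 CPM (log2 ratio 2.01, 1.83 to 2.19). The 5 other helicase genes lay between: Mcm2 at a log2 ratio of 2.1, Mcm6 at 2.27, Mcm3 at 2.31, Mcm7 at 2.55 and Mcm5 at 2.79. Rrm1, the large subunit of ribonucleotide reductase, was at 135 against 16.8 CPM (log2 ratio 3.01, 2.9 to 3.11). The E cyclins stood at 22.7 against 3.04 CPM (log2 ratio 2.9, 2.65 to 3.16) for Ccne1 and 12.8 against 0.71 CPM (log2 ratio 4.17, 3.74 to 4.62) for Ccne2. Hmgb2 was at 1097 against 230 CPM (log2 ratio 2.25, 2.22 to 2.29) and Stmn1 at 584 against 47.1 CPM (log2 ratio 3.63, 3.58 to 3.69).

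The remaining mitosis members of macrophages filled the range between. Cdk1, the kinase itself, was at 127 against 11.2 CPM (log2 ratio 3.5, 3.38 to 3.62), and the checkpoint genes Bub1 and Bub1b at log2 ratios of 3.82 and 2.69. The kinetochore genes Spc24 and Spc25 were at 3.93 and 3.93, and the large centromere proteins Cenpe and Cenpf at 3.9 and 4.46. The motors Kif20a and Kif23, both needed for the separation of daughter cells, were at 3.92 and 3.32, and the bundling protein Prc1 on which they act at 4.31. Tpx2, which activates Aurka, was at 3.87, and Cdca8, which travels with Aurkb, at 3.51. The degradation genes Cdc20 and Ube2c were at 38 against 2.82 CPM (log2 ratio 3.75, 3.52 to 3.99) and 246 against 17.7 CPM (log2 ratio 3.8, 3.71 to 3.89), and Cdca3 at 3.82 on the log2 scale. On the replication side the loader Cdc6 was at 19.3 against 2.04 CPM (log2 ratio 3.24, 2.95 to 3.54) and thymidylate synthase, Tyms, at 109 against 13.6 CPM (log2 ratio 3.01, 2.9 to 3.13). All of these passed 2-fold, so the spread among members was one of size and not of direction.

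**Figure D2:**
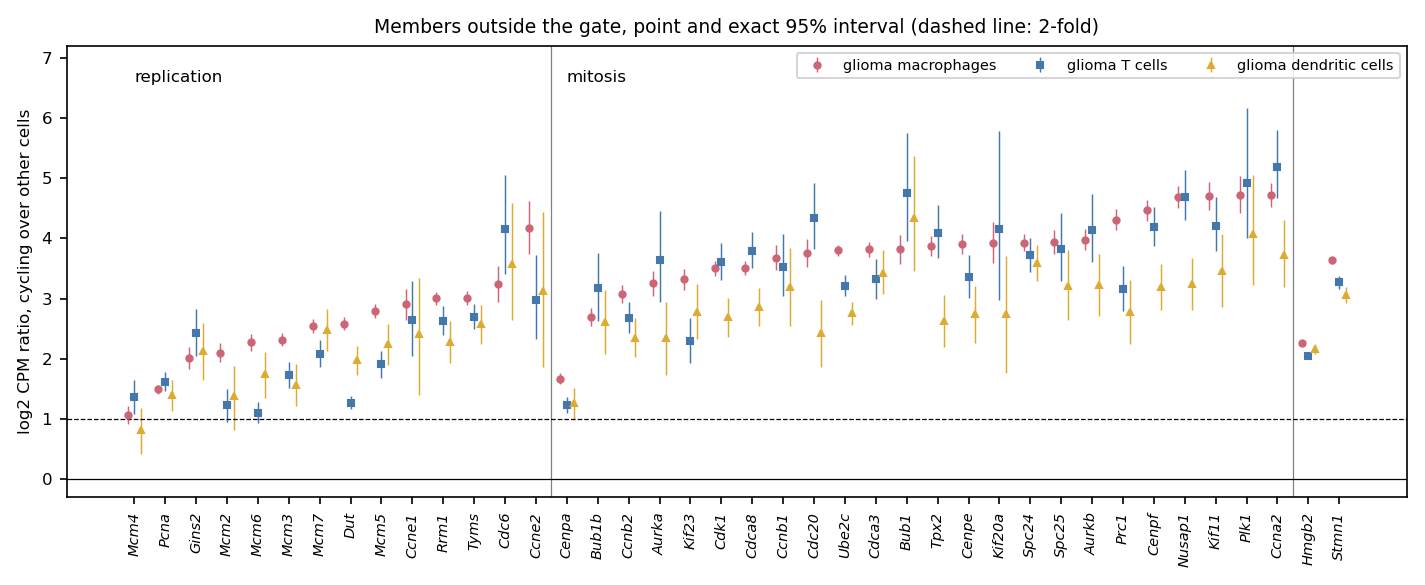
Log2 ratio of CPM between cycling and other cells (y axis) for the 40 members outside the gate, in glioma macrophages, T cells and dendritic cells; points are ratios with 0.5 UMIs added to each sum, whiskers exact 95% intervals, and genes are ordered by the macrophage value within the replication list, the mitosis list and Hmgb2 with Stmn1. The replication members sit lower than most mitosis members, and Cenpa is the mitosis member closest to the dashed 2-fold line in each class.

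T cells and dendritic cells gave the same division between the lists. In T cells 40 of 40 members outside the gate were at least 2-fold higher in cycling cells, against 7.21% of all genes tested, with a median log2 ratio of 3.24 over the members and 0.03 over all genes. The mitosis median was 3.75 and the replication median 1.99. In dendritic cells 39 of 40 were at least 2-fold higher, against 7.81% of all genes tested, with a median of 2.71 against 0.06. Mcm4 was the exception, at 53.9 against 30.9 CPM (log2 ratio 0.81, 0.41 to 1.18). As in macrophages, Ccna2 and Plk1 were among the largest: Ccna2 was at 111 against 3.0 CPM (log2 ratio 5.18, 4.67 to 5.8) in T cells and 61.5 against 4.61 CPM (log2 ratio 3.73, 3.19 to 4.3) in dendritic cells, and Plk1 at 28.5 against 0.899 CPM (log2 ratio 4.92, 4.0 to 6.16) and 28.1 against 1.64 CPM (log2 ratio 4.07, 3.22 to 5.04). The checkpoint kinase Bub1 was at 36 against 1.3 CPM (log2 ratio 4.75, 3.96 to 5.75) in T cells and 29.6 against 1.44 CPM (log2 ratio 4.33, 3.45 to 5.36) in dendritic cells. Nusap1 was also among the 4 largest in T cells, at 148 against 5.69 CPM (log2 ratio 4.69, 4.3 to 5.13), and the kinetochore gene Spc24 in dendritic cells, at 186 against 15.5 CPM (log2 ratio 3.58, 3.29 to 3.89). Outside the lists, Hmgb2 was at 2276 against 553 CPM (log2 ratio 2.04, 1.99 to 2.09) in T cells and 1497 against 336 CPM (log2 ratio 2.16, 2.07 to 2.24) in dendritic cells. Stmn1 was at 897 against 93.2 CPM (log2 ratio 3.27, 3.16 to 3.37) and 744 against 88.9 CPM (log2 ratio 3.07, 2.93 to 3.2).

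Several members with small ratios in T cells stood at a high level in the other T cells. Dut, which destroys dUTP, was at 396 against 164 CPM (log2 ratio 1.27, 1.16 to 1.38) in T cells and at 110.0 against 18.4 CPM (log2 ratio 2.58, 2.47 to 2.69) in macrophages. Mcm6 was at 142 against 65.8 CPM (log2 ratio 1.11, 0.93 to 1.28) in T cells and Mcm2 at 63.9 against 27.4 CPM (log2 ratio 1.22, 0.95 to 1.49), against log2 ratios of 2.27 and 2.1 in macrophages. Pcna was at 204 against 66.4 CPM (log2 ratio 1.62, 1.46 to 1.78) in T cells. In dendritic cells Mcm2 and Pcna were at 1.37 and 1.4 on the log2 scale. Cenpa was at 257 against 109.6 CPM (log2 ratio 1.23, 1.09 to 1.36) in T cells, with a log2 ratio of 1.26 (0.99 to 1.52) in dendritic cells. The intervals of the log2 ratios for Dut, Mcm6, Mcm2 and Cenpa did not overlap between T cells and macrophages. Cdc20, the activator of the anaphase ligase, had a larger ratio in T cells, at 69.4 against 3.4 CPM (log2 ratio 4.34, 3.83 to 4.92), than in dendritic cells, at 37.2 against 6.97 CPM (log2 ratio 2.42, 1.86 to 2.97), and the intervals did not overlap.

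Cells without a single gate UMI, counted without thinning, show the level of the members outside the cycle. Most mitosis members were close to 0 there: in 5328 such macrophages Plk1 was at 0.525 CPM, Nusap1 at 0.525, Bub1 at 0.669 and Ccna2 at 0.621. Hmgb2 was the clearest exception. It stood at 561 CPM (508 to 617) in glioma neutrophils, 451 CPM (434 to 469) in T cells, 185 CPM (181 to 188) in macrophages and 163 CPM (160.2 to 166) in control microglia. The neutrophil value was the highest among the glioma classes, in a class where no thinned cell was cycling, and control neutrophils without a gate UMI had 878 CPM (722 to 1058). Cenpa was at 266 CPM (193 to 357) in control B cells, 166 CPM (129.9 to 209.7) in glioma NK cells and 92.6 CPM (84.8 to 101) in glioma T cells, against 15.9 CPM (15.1 to 16.8) in control microglia.

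Other members had a class of their own. Stmn1 was at 364 CPM (329 to 401) in control endothelial cells, a class where no thinned cell was cycling, against 34.3 CPM in control microglia and 15 CPM in glioma macrophages. Kif23, a motor of cell separation, was at 41.8 CPM (28.4 to 59.3) in glioma neutrophils and 29.6 CPM (20.4 to 41.6) in endothelial cells, against 3.57 CPM (3.11 to 4.06) in macrophages. Ube2c, the ubiquitin-conjugating enzyme of the anaphase ligase, was at 46.2 CPM (34.8 to 60.1) in control cells gated on globin, against 4.92 CPM (4.39 to 5.5) in macrophages. Dut was at 118 CPM (109 to 128) in T cells and 9.76 CPM (9.0 to 10.6) in macrophages, and Mcm3 at 31.5 CPM (30.3 to 32.7) in control microglia and 12.4 CPM (11.5 to 13.3) in macrophages. Mcm3 was not confined to control microglia. Glioma cells below the cycling cut held it at 35 CPM in T cells and 24.9 CPM in dendritic cells. Pcna varied less between classes, at 53.4 CPM (51.6 to 55.2) in macrophages, 46.7 CPM (41.2 to 52.7) in T cells, 39.1 CPM (26.2 to 56.2) in neutrophils and 30.9 CPM (29.7 to 32.1) in control microglia, but was at 2.52 CPM (0.519 to 7.36) in the cells gated on globin. Genes such as Hmgb2 and Stmn1 have related copies in the genome, and how the counting split reads among copies is not given in the sources used here.

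**Figure D3:**
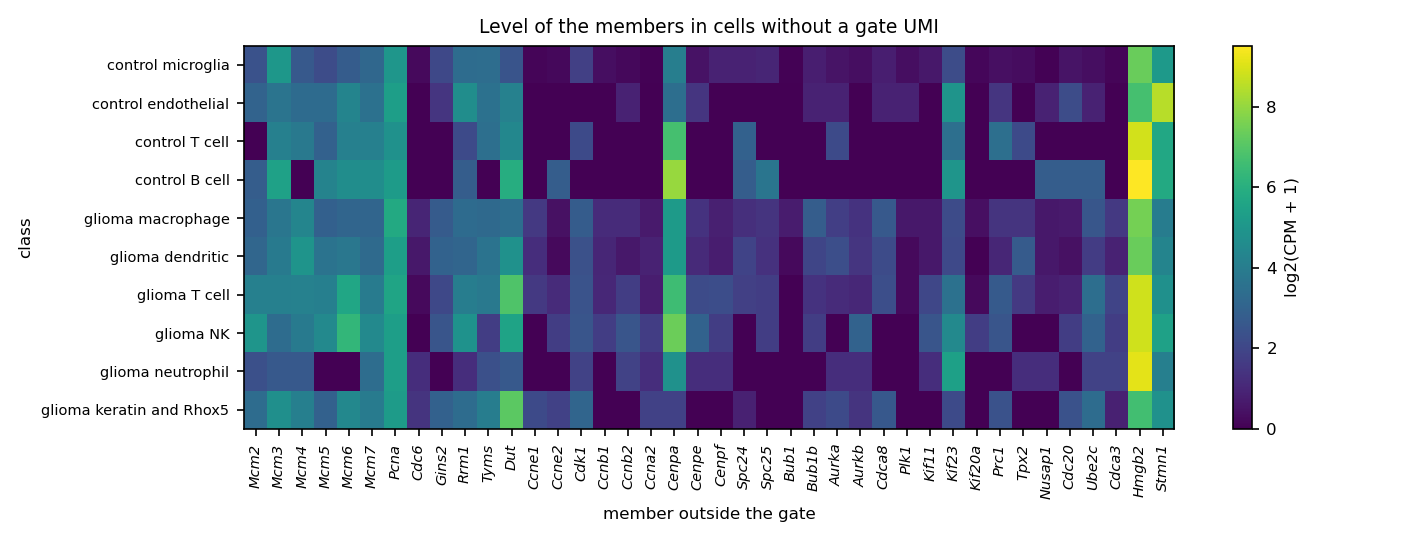
Level of the 40 members outside the gate (x axis) in cells without a gate UMI, by class (y axis), as log2(CPM + 1) in colour. Among the classes drawn, Hmgb2, Cenpa and Pcna are lit in nearly every one, Stmn1 in endothelial cells and Kif23 in neutrophils, while Plk1, Bub1 and Ccna2 stay dark.

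Cycling cells of different classes held replication and mitosis transcripts in different proportion. Over the 14 replication and 24 mitosis members outside the gate, cycling macrophages had 0.554 (0.541 to 0.568) replication UMIs for each mitosis UMI, T cells 0.668 (0.644 to 0.692) and dendritic cells 0.517 (0.483 to 0.552). The interval of T cells lay above the others. Dut, which T cells outside the cycle also held at a high level, supplied 1221 of the 5130 replication UMIs in cycling T cells. It supplied 1079 of 10585 in macrophages and 221 of 1310 in dendritic cells. How far the place of T cells rests on Dut was not tested. The ratio was lower in the 22 cycling control microglia, at 0.258 (0.231 to 0.287), where mitosis members reached 5484 CPM against 1947 CPM in cycling glioma macrophages. Within T cells, cycling Cd8 cells had 0.703 (0.667 to 0.74), Foxp3 cells 0.666 (0.614 to 0.723) and Cd4 cells without Foxp3 0.452 (0.415 to 0.491). Within macrophages the ratio ran from 0.417 (0.321 to 0.539) in the 6 cycling Rsad2/Ifit cells to 0.676 (0.598 to 0.764) in the 18 cycling Ly6c2/Chil3/Plac8 cells. These intervals count UMIs, and the UMIs of 1 cell are not independent, so they are narrower than the spread of cells.

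The per-cell view shows that spread. Among cells with at least 10 UMIs of both lists together, the replication share of a single macrophage had a median of 0.333 (quartiles 0.196 and 0.523, 365 cells), of a T cell 0.433 (0.25 and 0.615, 145 cells) and of a dendritic cell 0.30 (0.172 and 0.596, 53 cells). The quartiles of the classes overlapped. Cutting this range at 1 and 2 parts in 3 gave 181 mitosis-rich, 145 balanced and 39 replication-rich macrophages, the last being 10.7% (7.71 to 14.3%). Replication-rich cells were 24 of 145 T cells (16.6%, 10.9 to 23.6%) and 9 of 53 dendritic cells (17%, 8.07 to 29.8%), with overlapping intervals. The ratio moved with the gate, from 0.539 in macrophages gated on Mki67 and Top2a alone to 0.70 when gated on Pclaf, Rrm2 and Tk1 alone. T cells stood highest of the 3 classes under each gate, with Dut counted each time.

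**Figure D4:**
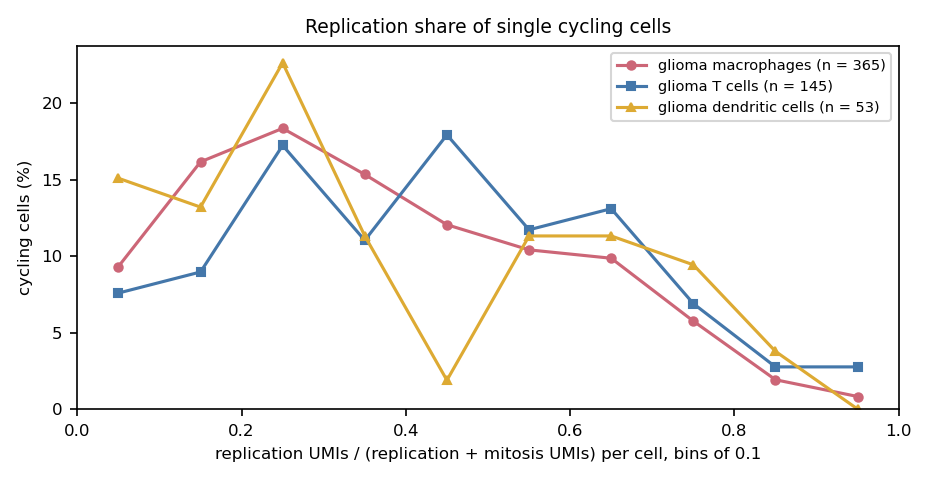
Distribution of the replication share of single cycling cells (x axis, replication UMIs over replication plus mitosis UMIs, bins of 0.1; y axis, % of the cells of the class). Macrophages peak between 0.2 and 0.3 (18.4% of cells) and T cells between 0.4 and 0.5 (17.9%).

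Levels of the 8 members outside that ordering were compared between replication-rich and mitosis-rich cells. Of these, 6 are gate genes whose UMIs chose the cells, so that a cell low in Mki67, Top2a and Birc5 had to hold Pclaf, Rrm2 or Tk1, and opposite signs among them are partly built in. Only Hmgb2 and Stmn1 took no part in either step. In macrophages Rrm2, the small subunit of ribonucleotide reductase, was at 126 against 47.5 CPM (log2 ratio 1.41, 1.08 to 1.73), and Pclaf at 365 against 268 CPM (log2 ratio 0.44, 0.27 to 0.61). Birc5 went the other way, with a log2 ratio of -1.82, and so did Mki67 at 149 against 366 CPM (log2 ratio -1.29, -1.54 to -1.05), Top2a at 200.5 against 382 CPM (log2 ratio -0.93, -1.15 to -0.72) and Hmgb2 at 667 against 1279.7 CPM (log2 ratio -0.94, -1.06 to -0.82). Stmn1 differed less, at 425 against 581 CPM (log2 ratio -0.45, -0.60 to -0.31). T cells had the same signs, with log2 ratios of 0.56 for Rrm2, 0.61 for Pclaf, -2.06 for Birc5, -0.85 for Mki67 and -1.05 for Hmgb2, and so had dendritic cells (0.97, 0.53, -2.35, -1.22 and -0.86). Median UMIs per cell in these macrophage bins were 26831 and 26025.

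Of the 73 further cell cycle genes, which the gate did not use, 71 had enough UMIs in macrophages: 20 were at least 2-fold higher in replication-rich cells and 14 in mitosis-rich cells, and the others lay between. The counts were 13 and 17 of 66 in T cells and 8 and 15 of 43 in dendritic cells. The share of all genes past 2-fold between these bins was not read. These counts therefore cannot show whether the list differs from other genes. The examples that follow were chosen after their values were seen. In macrophages the activator E2f1 was at 81.6 against 14.5 CPM (log2 ratio 2.49, 2.01 to 2.97), the hemimethyl-DNA reader Uhrf1 at 121 against 28.4 CPM (log2 ratio 2.09, 1.72 to 2.45), DNA ligase Lig1 at 173 against 51.5 CPM (log2 ratio 1.75, 1.46 to 2.03) and the D cyclin Ccnd1 at 189 against 55 CPM (log2 ratio 1.78, 1.5 to 2.05). On the mitosis-rich side stood the phosphatase Cdc25b, which activates Cdk1, at 5.9 against 33.6 CPM (log2 ratio -2.4, -3.98 to -1.36), the inhibitor Cdkn2d at 9.83 against 43 CPM (log2 ratio -2.06, -3.21 to -1.22), and Racgap1, a regulator of cell separation, at 29.5 against 108 CPM (log2 ratio -1.85, -2.45 to -1.34). E2f1, Uhrf1 and Lig1 had log2 ratios of 2.19, 1.4 and 1.64 in T cells. Ccnd1 had too few UMIs in T cells and stood at 1.38 in dendritic cells.

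**Figure D5:**
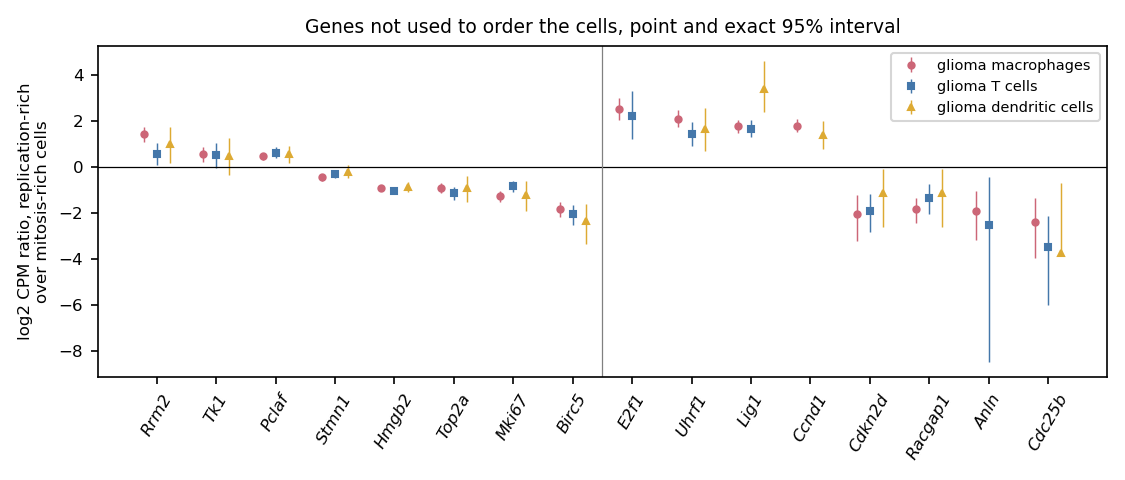
Log2 ratio of CPM between replication-rich and mitosis-rich cycling cells (y axis) for the 8 members not used to order the cells (left of the line) and 8 other cell cycle genes (right), in 3 glioma classes, with exact 95% intervals; genes with fewer than 20 UMIs in a class are not drawn there, and a point with no whisker on 1 side has an unbounded interval. Rrm2, Tk1 and Pclaf lie above 0 and Top2a, Mki67 and Birc5 below it in each class.

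For several pairs of family members, the UMI counts in cycling cells stood in a different proportion between classes. In cycling macrophages there were 1.51 (1.34 to 1.7) Ccnb2 UMIs for each Ccnb1 UMI, against 2.59 (2.14 to 3.15) in T cells and 2.81 (2.01 to 4.0) in dendritic cells. For the E cyclins, Ccne1 to Ccne2 was 1.77 (1.42 to 2.22) in macrophages, 1.03 (0.72 to 1.48) in T cells and 1.31 (0.598 to 2.93) in dendritic cells, where the macrophage and T cell intervals just overlapped. Rrm1 to Rrm2 was 1.79 (1.63 to 1.96) in macrophages, 1.07 (0.934 to 1.24) in T cells and 0.848 (0.657 to 1.09) in dendritic cells, although Rrm2 is a gate gene. Mcm6 to Mcm2 was 1.42 (1.26 to 1.6) in macrophages and 2.22 (1.87 to 2.64) in T cells, and Cenpf to Cenpe 1.11 (1.01 to 1.22) and 1.89 (1.63 to 2.2). The kinases Aurkb and Aurka stood at 1.81 (1.59 to 2.06) in macrophages and 2.31 (1.76 to 3.05) in T cells, with overlapping intervals. These are ratios of UMI counts, which carry each gene's own capture rate, so only the classes can be compared and not the genes. The UMIs of 1 cell are not independent, so the intervals are narrower than the spread of cells. Cells below the cycling cut also differed for Mcm6 and Mcm2, at 659 and 274 UMIs in T cells and 1343 and 1067 in macrophages. The part of levels outside the cycle in these ratios was not tested for any pair.

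Of 73 further cell cycle genes outside the members, 52 of 73 with enough UMIs were at least 2-fold higher in cycling macrophages (all genes: 8.42%). None was at least 2-fold lower (all genes: 3.76%). In T cells 53 of 73 were higher (all genes: 7.21%) and 1 was lower (all genes: 4.82%). In dendritic cells 46 of 67 were higher (all genes: 7.81%) and 1 was lower (all genes: 5.61%). A gene seen almost only in cycling cells reaches the minimum of 20 UMIs through them, so these counts describe the lists and no more. The largest ratios in macrophages were those of the atypical repressor E2f7, at 13 against 0.459 CPM (log2 ratio 4.81, 4.31 to 5.35), the mitotic transcription factor Foxm1, at 27.9 against 1.23 CPM (log2 ratio 4.5, 4.19 to 4.83), the kinetochore gene Nuf2, at 21 against 1.12 CPM (log2 ratio 4.23, 3.89 to 4.58), and the checkpoint kinase Ttk, at 12.1 against 0.647 CPM (log2 ratio 4.22, 3.77 to 4.7). At the other end stood the antiproliferative genes Btg1, at 648 against 1063 CPM (log2 ratio -0.71, -0.75 to -0.68), and Btg2, at 284 against 428 CPM (log2 ratio -0.59, -0.65 to -0.54). Btg1 was the gene past 2-fold lower in T cells, at 314 against 671 CPM (log2 ratio -1.1, -1.2 to -1.0). Nuf2 had the largest ratio in T cells and dendritic cells, with log2 ratios of 5.17 and 4.0. The repressor E2f8 was at 4.65 and 3.96, and E2f7 at 4.54 in T cells. Cdc25c, a phosphatase that activates Cdk1, was at 4.67 in T cells, and Foxm1 and the cell separation gene Anln at 3.87 and 3.69 in dendritic cells. At the lower end in dendritic cells were the growth regulator Myc (-0.84), Btg1 (-0.72) and the separase inhibitor Pttg1 (-0.64).

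The inhibitors of cyclin-dependent kinases did not act as 1 group. Cdkn2c, the p18 inhibitor of the D cyclin kinases, was higher in cycling cells of all 3 classes: 26.1 against 2.74 CPM (log2 ratio 3.25, 3.0 to 3.51) in macrophages, 34.4 against 10.3 CPM (log2 ratio 1.74, 1.34 to 2.15) in T cells and 35.7 against 10.8 CPM (log2 ratio 1.74, 1.2 to 2.24) in dendritic cells. Cdkn2d was also higher, with log2 ratios of 1.45, 1.03 and 1.8. Cdkn2a, the p16 and p19ARF gene, was at 10.4 against 2.2 CPM (log2 ratio 2.23, 1.41 to 3.09) in T cells and 0.816 against 0.324 CPM (log2 ratio 1.4, 0.00 to 2.49) in macrophages, where it rests on 8 UMIs in cycling cells. Cdkn1a, the p21 inhibitor, was at 506 against 703 CPM (log2 ratio -0.48, -0.52 to -0.43) in macrophages and 374 against 539.8 CPM (log2 ratio -0.53, -0.66 to -0.39) in dendritic cells, but at 129.8 against 104 CPM (log2 ratio 0.32, 0.14 to 0.48) in T cells, so the sign differed by class. Cdkn1b, or p27, was lower in cycling T cells, at 67.8 against 107 CPM (log2 ratio -0.66, -0.88 to -0.45), with log2 ratios of -0.19 in macrophages and 0.02 in dendritic cells. Among the D cyclins Ccnd2 was lower in cycling cells, with log2 ratios of -0.26 in macrophages, -0.72 in T cells and -1.1 in dendritic cells. Ccnd3 was at 0.37, -0.12 and 0.43, and Ccnd1 at 0.21, -0.07 and -0.04. Cdkn1c had log2 ratios of -0.13 in macrophages and -0.26 in T cells. Apart from Cdkn2c, Cdkn2d, Cdkn2a and the dendritic Ccnd2 value, none of these passed 2-fold.

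The macrophage markers themselves were lower in cycling macrophages, at 3159 CPM for the list of 10 against 4814 CPM in the others. The neutrophil list was at 59.4 against 226 CPM. The macrophage groups had unequal cycling shares, and the part of that mix in these differences was not tested.

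Microglia could be compared between the groups, with 12242 control and 53 glioma cells. Of 45 members with enough UMIs, 33 had a ratio of at least 2-fold higher in glioma microglia, against 15% of all genes tested, and none at least 2-fold lower, against 19.9%. These ratios have 0.5 UMIs added to each sum, which in the small glioma sum lifts rare genes: Cdc6 and Ccne2 are among the 33 with 0 glioma UMIs and Ccna2 with 1. With no UMIs added, 29 members were at least 2-fold higher (all genes: 9.98%), and the 2 on the lower side were Cdc6 and Ccne2, whose levels cannot be told apart at this depth. Mitosis members outside the gate had a median log2 ratio of 2.63, with -0.16 over all genes. Birc5 was at 43.2 against 1.74 CPM (log2 ratio 4.65, 4.05 to 5.18), Ccnb2 at 21.6 against 1.1 CPM (log2 ratio 4.32, 3.45 to 5.04) and Mki67 at 39.4 against 3.84 CPM (log2 ratio 3.38, 2.78 to 3.89). Among the helicase genes, whose intervals were wide, Mcm3 was at 24.1 against 32.2 CPM (log2 ratio -0.38, -1.15 to 0.23) and Mcm7 at 5.08 against 8.74 CPM (log2 ratio -0.61, -2.66 to 0.58), and Hmgb2 was at 137 against 170.0 CPM (log2 ratio -0.30, -0.60 to -0.04).

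These glioma values rest on few cells. Of 266 mitosis UMIs in the glioma microglia, 128 came from 1 cell and 185 from 4. Birc5 was detected in 4 cells, Ccnb2 in 4 and Mki67 in 11. With the cells called cycling left out of both libraries, 18 of 38 members with enough UMIs were at least 2-fold higher with no UMIs added (all genes: 9.64%) and 12 at least 2-fold lower (all genes: 37.3%), 8 of the latter at 0 UMIs in glioma. Mki67 stood at 29.7 against 1.3 CPM. The glioma cells left out were only the 3 past the thinned cut. Before thinning, 13 of the 53 held at least 2 gate UMIs, with 82 of the 85 gate UMIs. Most of these stayed in, so the values do not give a level outside the cycle. The glioma cells also carried less of the microglia list, 1856 CPM with 8 of 8 markers detected, against 14099 CPM in the control, and free RNA in the glioma library held more of the gate genes. With free RNA subtracted from both sums and no UMIs added, 31 of 45 members were at least 2-fold higher (all genes: 17.1%) and 4 at least 2-fold lower (all genes: 32.4%). Of the inhibitors, Cdkn1a was at 406 against 127 CPM (log2 ratio 1.68, 1.51 to 1.84) and Cdkn2a at 16.5 against 0.713 CPM (log2 ratio 4.58, 3.55 to 5.41), whereas Cdkn1c was at 1.27 against 28.7 CPM (log2 ratio -3.91, -9.8 to -2.02) with 1 UMI in the glioma cells.

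The 22 cycling control microglia held the members at higher levels than the other control microglia. For the 4 largest ratios, those other cells were almost silent. Ccna2 was at 235 against 0.13 CPM (log2 ratio 10.77, 9.9 to 11.89), Nusap1 at 215 against 0.13 CPM (log2 ratio 10.64, 9.76 to 11.77), Cdca3 at 201 against 0.141 CPM (log2 ratio 10.43, 9.56 to 11.5) and Ccnb2 at 259 against 0.236 CPM (log2 ratio 10.08, 9.38 to 10.89). All 39 members outside the gate with enough UMIs were at least 2-fold higher, against 32% of all genes tested (and 8.13% at least 2-fold lower). The UMIs added to each sum lift rare genes in the small sum of the cycling cells. Orc1, not a member and below the minimum, had a log2 ratio of 2.97 with 0 UMIs there against 18. The share of all genes with no UMIs added was not read here, so the 32% cannot describe the cells. Of the 39 members, Cdc6 had the fewest UMIs in the cycling cells, at 7. Ccne1 did not reach the minimum of 20 UMIs. Mcm3 had the smallest ratio, at 139.7 against 31.8 CPM (log2 ratio 2.15, 1.65 to 2.58), followed by Pcna at 215 against 31.4 CPM (log2 ratio 2.78, 2.39 to 3.13), Hmgb2 at 1744 against 164 CPM (log2 ratio 3.41, 3.28 to 3.53) and Mcm4 at 57.9 against 5.45 CPM (log2 ratio 3.45, 2.62 to 4.1). Outside the members, the kinetochore genes Nuf2 and Ndc80 were at log2 ratios of 9.35 and 8.23 and the cell separation genes Anln and Racgap1 at 8.07 and 7.85. At the lower end was Cdkn1c, with 0 UMIs in the cycling cells against 29 CPM, at least 2.83-fold lower when 3 UMIs are taken as the floor. It was followed by Btg1 (-0.74), E2f3 (-0.69) and Ccng2 (-0.59). The cycling cells kept the microglia list at 8447 CPM, against 14167 CPM in the others.

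The comparison of glioma with control T cells turned on few control cells. Of 46 members, 6 were at least 2-fold higher in glioma T cells (all genes: 11.8%) and 1 was at least 2-fold lower (all genes: 14.2%), with a median log2 ratio of 0.22 against -0.12 over all genes. The share of members that were higher was near that of all genes. With no UMIs added 8 were higher (all genes: 17.5%). The lower member was Kif23, at 19.5 against 43.3 CPM (log2 ratio -1.19, -1.83 to -0.40). Dut was at 218 against 105 CPM (log2 ratio 1.04, 0.64 to 1.51) and Mki67 at 146 against 86.7 CPM (log2 ratio 0.73, 0.29 to 1.26), while Rrm2 was at 35.5 against 68.4 CPM (log2 ratio -0.97, -1.48 to -0.36) and Ccna2 at 28.2 against 52.5 CPM (log2 ratio -0.92, -1.5 to -0.22). The 62 control T cells held 449 mitosis UMIs, 350 of them in 4 cells. Without the 5% of cells with the most UMIs 22 of 45 members were at least 2-fold higher, and without the cells called cycling 21 of 42. With no UMIs added these numbers were 28 of 45 (all genes: 19.4%) and 23 of 42 (all genes: 18.9%).

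Neutrophils showed a contrast between the libraries. The 28 control neutrophils held the gate genes at 546 CPM and the 315 glioma neutrophils at 38.3 CPM, below the free RNA of that library. All 126 control gate UMIs lay in 5 cells, 57 of them in 1, and 1 of 24 thinned control cells passed the cut (4.17%, 0.105 to 21.1%). That is a single random thinning. The mean share over all possible thinnings was 10.8%, and the share without thinning was 17.9%. Genes of neutrophil maturation, chosen after the gate values were seen, did not all point one way. The granule genes Ngp and Camp stood higher in the control cells, with Ngp at 33595 CPM against 293 CPM in glioma, and Camp at 28162 against 58.6 CPM. Also higher in control were Ltf at 6509 against 71.8 CPM, Elane at 334 against 0 CPM, Fcnb at 338 against 0 CPM and Cebpe at 156 against 2.39 CPM. Cxcr2, the chemokine receptor of mature cells, was at 73.7 CPM in control and 1032 CPM in glioma. Retnlg and Mmp8, which come late in maturation, were higher in the control cells, at 9731 against 7064 CPM and 819.6 against 367 CPM.

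A last class in the glioma library was marked by Rhox5 and the keratins Krt8 and Krt18, with little Ptprc, the gene of CD45 (9.07 CPM, against 267 CPM in glioma microglia). Of these cells 11 of 87 (12.6%, 6.48 to 21.5%) were cycling, the highest share of any glioma class with at least 50 cells, with an interval that overlapped those of T cells, dendritic cells, NK cells and microglia and lay above that of macrophages. Their summed gate genes stood at 437 CPM, against 551 CPM in T cells and 197 CPM in macrophages. Their cycling cells had 0.664 (0.614 to 0.719) replication UMIs for each mitosis UMI. Their depth was far above the other classes, with a median of 42597 UMIs and an unthinned share of 42%.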

How the data were processed

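Single-cell RNA of CD45-sorted cells from control brain and glioma was captured with Chromium 3' chemistry, per the labels' protocols. The values are raw UMI counts as deposited, 1 matrix per group, made by the authors with Cell Ranger 3.0.2, with STAR and Seurat 3 also listed, per the submitters' processing notes. Builds mm10 and GRCh38 are both named, and all genes in the files are mouse genes. How reads were assigned to copies of a gene is not given in the sources used here.

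The members, marker lists, class gates and tests were chosen with earlier results of these data known. Barcodes had at least 1000 UMIs and at most 10% mitochondrial UMIs. Each was scored on 16 marker lists and given the leading one if it held at least 3 UMIs of at least 2 genes (microglia: 6 UMIs of 3 genes). It was called mixed if a list of another lineage scored at least 1 part in 3 of the leading one. These thresholds, and a rule that 3 UMIs of a single gene of the Rhox5 and keratin list suffice, were set after the data were seen. No doublet caller was run. Levels are summed UMIs per 1000000. Log2 ratios have 0.5 UMIs added to each sum, and genes with at least 20 UMIs over both sums were counted. Intervals are exact at 95%: Clopper-Pearson for shares, Poisson for levels, conditional binomial for ratios. A share of 0 was given the limit of 3 counts. PCR and cell sampling add error that these intervals do not cover. Free RNA was read from barcodes with 10 to 100 UMIs.

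The members described were the 4 largest and 4 smallest ratios per class, the gate genes, the family pairs and any member at or above 50 CPM in other cells. Of the list outside the members, the 4 largest and 4 smallest ratios, the CDK inhibitors and the D cyclins were described, and other genes are said to be chosen after their values were seen. The matrices held 124023146 control and 159689787 glioma UMIs. In all, 24 other settings were tried, and 4 more were added after seeing the data. The scripts were tested on simulated counts and ran in Python 3.11.15 with numpy 2.4.6, scipy 1.17.1, pandas 2.3.3 and matplotlib 3.10.9.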

Additional observations from a re-analysis of the deposited data

Results flagged for a closer look

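Barcodes with strong marker lists of more than 1 lineage were left out of the comparisons, yet they carried the cycle genes above the control level. In the glioma library 39 of 485 such barcodes were cycling (8.04%, exact 95% interval 5.78 to 10.8%), against 2 of 573 in the control library (0.349%, 0.0423 to 1.26%). The difference was not tested, since each group is 1 library.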

How the results depend on the processing

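No paired analysis was possible because each group came as 1 pooled matrix and the barcodes carry no replicate. For the same reason no replicate could be left out. The share of cycling cells depends on the cut, and glioma macrophages, T cells, dendritic cells and microglia stayed above control microglia under each setting, with overlapping intervals for microglia under 3 of them. As percent of cells, the share was 0.90 in control microglia, 11.4 in macrophages, 21.3 in T cells and 18.1 in dendritic cells with at least 1 gate UMI, and 3.32 in macrophages, 8.96 in T cells and 6.21 in dendritic cells with at least 3. With Mki67 and Top2a alone it was 0.486 in control microglia, 7.64 in macrophages and 16.1 in T cells, and with Pclaf, Rrm2 and Tk1 alone 0.405 in control microglia. Thinned to 1000 UMIs it was 0.106 in control microglia, 2.7 in macrophages, 7.07 in T cells and 5.36 in dendritic cells, thinned to 4000 UMIs 0.307 in control microglia, 8.4 in macrophages, 17.2 in T cells and 14.8 in dendritic cells, and without thinning 0.441 in control microglia, 24.5 in glioma microglia, 15.5 in macrophages, 22.6 in T cells and 24.8 in dendritic cells. At most 5% mitochondrial UMIs gave 4.04 in macrophages. Without the 5% of cells with the most UMIs it was 0.114 in control microglia, 3.86 in macrophages and 9.29 in T cells. Leaving out barcodes shared by the libraries, a higher UMI minimum per barcode, a class gate of 5 UMIs, 20% mitochondrial UMIs and the mean over all possible thinnings (chosen after seeing the data) moved no share beyond its interval. The counts of members higher in cycling cells stayed within 1.5 times under each alternative. For glioma against control microglia, 20 of 32 members were at least 2-fold higher with a minimum of 100 UMIs and 19 of 38 without cells called cycling, 1 of the 19 being Plk1 with 0 glioma UMIs. For T cells the count was 2 of 46 with free RNA subtracted, 22 of 45 without the 5% of cells with the most UMIs and 21 of 42 without cells called cycling. The share of all genes under these settings was read only with no UMIs added. With free RNA subtracted and no UMIs added, 5 of 46 members were higher in T cells (all genes: 33.9%). With no UMIs added to the sums the counts were 29 of 45 for microglia (all genes: 9.98%) and 8 of 46 for T cells (all genes: 17.5%). Leaving out cycling cells and adding no UMIs were chosen after seeing the data. The cells left out were those past the thinned cut, so other cells with gate UMIs before thinning stayed in. Replication UMIs per mitosis UMI in macrophages, T cells and dendritic cells were 0.539, 0.705, 0.35 with Mki67 and Top2a alone, 0.70, 0.937, 0.672 with Pclaf, Rrm2 and Tk1 alone, and 0.534, 0.721, 0.585 counted in thinned cells, where dendritic cells stood above macrophages. The cause of these movements was not tested.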
